A study of Mus musculus with 12 samples.

Results

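The genes described here make cholesterol or set how much of it a cell makes. They are 27 genes named by symbol: the enzymes from acetyl-CoA to cholesterol, the proteins that sense sterols and switch these enzymes on, and 3 genes that move or store cholesterol. Each symbol was matched to its own line of the deposited count table, which lists 54532 genes, and none was repeated there. All 27 had enough counts to be tested, among 14286 tested genes. They were measured in 12 RNA sequencing libraries of mouse bone marrow-derived macrophages, which arise when marrow cells are cultured with the macrophage growth factor M-CSF. The 4 groups hold 3 libraries each. They are Lyz2-Cre-Hdac3f/f cells, shortened to Lyz2-Cre, given 500 ng/ml lipopolysaccharide (LPS, a bacterial cell wall component that activates macrophages) for 4 h, Lyz2-Cre cells kept 4 h without it, Hdac3f/f cells given LPS for 4 h, and Hdac3f/f cells kept 4 h without it. In both genotypes Hdac3, which encodes a histone deacetylase, is floxed, that is, flanked by sites that the recombinase Cre cuts. The Cre carried by Lyz2-Cre cells is driven from Lyz2, a gene of myeloid cells, so deletion is limited to cells that use that gene and to the time since they began to. All donors were 8 weeks old, and all cultures held 10 ng/ml M-CSF, 10% serum and 1% penicillin and streptomycin. Serum brings lipoprotein cholesterol to the cells.

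Cholesterol is built from acetyl-CoA through mevalonate and isoprenoid diphosphates to squalene, which is closed into lanosterol and then trimmed to cholesterol. When sterols in the endoplasmic reticulum are low, Scap carries the membrane-bound factor SREBP2, the product of Srebf2, to the Golgi, where proteases release its active part. That part enters the nucleus and switches on nearly all enzymes of the pathway, and also Insig1 and Srebf2 itself. When sterols are high, the Insig proteins hold Scap back. Macrophages take up cholesterol from debris and lipoproteins, and their sterol pathway is known to be altered by signals from microbes.

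Levels are in CPM, the count of a gene scaled by the library's total times a TMM factor (edgeR's correction for differences in composition between libraries). A gene was called where edgeR's quasi-likelihood test gave a Benjamini-Hochberg adjusted p under 0.05 over all 14286 tested genes. Fold changes and differences are on the log2 scale, each followed by its standard error (SE). The libraries held 16553432 to 18706990 counts, and the 27 genes took 0.115% to 0.202% of them. Hdac3 was measured at 37.9, 34.4 and 38.9 CPM in LPS-treated Lyz2-Cre libraries, 36.6, 33.1 and 35.1 in untreated Lyz2-Cre libraries, 40.7, 39.1 and 38.7 in LPS-treated Hdac3f/f libraries and 36.3, 39.2 and 39.7 in untreated Hdac3f/f libraries, and it was not called between genotypes. A count over the whole gene does not separate the floxed exons from the rest, so it checks neither the deletion nor the labels. Untreated Lyz2-Cre replicate 1 stood apart in Lyz2 itself, at 31.0 CPM against 5181 to 5637 CPM in the other untreated Lyz2-Cre libraries. Macrophage markers were present in all libraries, with a summed level of 5906 to 23002 CPM over 8 genes and none at 0.

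Promoters of 5 genes are shown because they carry the responses described further on: Hmgcs1, Srebf2, Insig1 and Cyp51 rose with LPS, the last 3 of these were lower in Lyz2-Cre cells at both treatments, and Dhcr7 had the largest fall with LPS. Each sequence runs 5′ to 3′ on the gene's strand, from 250 bases before to 50 bases after the RefSeq start, in build GRCm38.p6. Capitals mark matches, on either strand, to TCACNCCAC (a sterol regulatory element, bound by SREBPs), CCAAT (bound by NF-Y), GGGCGG (bound by Sp1) or CACGTG (an E-box).
Hmgcs1, chr13:119690101-119690400, plus strand: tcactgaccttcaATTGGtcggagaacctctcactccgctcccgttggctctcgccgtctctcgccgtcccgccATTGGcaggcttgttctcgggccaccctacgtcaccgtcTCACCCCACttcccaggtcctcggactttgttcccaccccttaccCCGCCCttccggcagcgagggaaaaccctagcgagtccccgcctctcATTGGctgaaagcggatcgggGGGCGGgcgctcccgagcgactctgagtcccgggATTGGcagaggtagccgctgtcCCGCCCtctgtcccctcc
Srebf2, chr15:82147019-82147318, plus strand: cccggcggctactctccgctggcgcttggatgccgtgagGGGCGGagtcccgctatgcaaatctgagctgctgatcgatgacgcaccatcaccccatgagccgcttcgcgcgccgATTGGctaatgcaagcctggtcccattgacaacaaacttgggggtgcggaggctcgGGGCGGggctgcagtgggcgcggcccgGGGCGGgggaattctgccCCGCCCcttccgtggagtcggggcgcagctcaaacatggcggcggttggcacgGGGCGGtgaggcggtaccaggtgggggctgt
Insig1, chr5:28071162-28071461, plus strand: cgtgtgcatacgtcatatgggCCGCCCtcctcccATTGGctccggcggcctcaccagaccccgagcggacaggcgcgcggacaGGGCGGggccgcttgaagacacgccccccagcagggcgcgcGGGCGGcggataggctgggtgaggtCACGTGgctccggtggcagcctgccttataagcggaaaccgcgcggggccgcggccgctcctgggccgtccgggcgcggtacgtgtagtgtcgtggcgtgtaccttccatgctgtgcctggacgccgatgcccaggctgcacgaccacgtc
Cyp51, chr5:4104648-4104947, minus strand: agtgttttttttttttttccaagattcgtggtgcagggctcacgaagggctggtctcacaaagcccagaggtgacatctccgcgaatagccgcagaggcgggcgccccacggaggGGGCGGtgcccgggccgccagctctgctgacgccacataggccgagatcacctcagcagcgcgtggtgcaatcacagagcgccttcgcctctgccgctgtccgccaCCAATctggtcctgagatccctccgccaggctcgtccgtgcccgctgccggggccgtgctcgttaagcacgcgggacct
Dhcr7, chr7:143822917-143823216, plus strand: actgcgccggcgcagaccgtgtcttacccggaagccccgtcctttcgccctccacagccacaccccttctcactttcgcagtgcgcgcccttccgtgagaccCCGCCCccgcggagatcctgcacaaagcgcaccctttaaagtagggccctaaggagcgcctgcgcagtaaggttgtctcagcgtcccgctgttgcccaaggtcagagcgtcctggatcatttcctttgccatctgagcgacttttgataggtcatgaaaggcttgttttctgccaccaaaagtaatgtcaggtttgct

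RefSeq promoters of this length were matched for 22 of the 27 genes, and the others were not used here (Stard4, Npc1, Fdft1, Sqle and Fdps). For each gene the window nearest its deposited start was taken. The promoters set beside them were all those available, chosen neither this way nor by expression, so the sets are not alike. CCAAT was found in 19 of the 22 windows (86.4%), against 37.4% of all 32851 promoters of the same length. GGGCGG was likewise in 19 of 22 (86.4%), against 35.7% of all promoters, and 16 of 22 windows (72.7%) held both, against 12.8% of all promoters. The 3 windows without CCAAT were those of Dhcr7, Scap and Acat2. CACGTG was in 4 of 22 (18.2%), those of Sc5d, Insig1, Scap and Hsd17b7, against 7.15% of all promoters. TCACNCCAC was in 1 of 22 (4.55%), against 1.24% of all promoters. That match is in Hmgcs1, with its first base at -137 from the start, and has the spelling TCACCCCAC. A match describes letters only, and the absence of these letters in a window says nothing about binding elsewhere or at other spellings.

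The first question the design poses is how these genes answer LPS in each genotype. In both genotypes most of the pathway rose within 4 h of LPS, while Dhcr7 and a pair of other sterol enzymes, the SREBP2 escort Scap, and the cholesterol handling genes Npc1 and Soat1 fell. In Lyz2-Cre cells 16 of 27 genes were higher with LPS (59.3%, and 25.2% of all tested genes). Another 6 were lower (22.2%, and 27.7% of all) and 5 were not called. In Hdac3f/f cells 17 were higher (63%, and 28.0% of all), 6 lower (22.2%, and 32.1% of all) and 4 not called. The share that fell was thus no larger than that of all genes in either genotype. The median log2 fold change of the 27 genes was 0.70 in Lyz2-Cre cells and 0.94 in Hdac3f/f cells, and that of all tested genes was -0.08 in both. The 2 responses share no library: 15 genes were called higher in both (21.4% of all tested genes were), the same 6 were called lower in both (23.1% of all; Tm7sf2, Ebp, Dhcr7, Scap, Npc1 and Soat1), and none was called in opposite directions. Mvk, Lbr and Nsdhl were called in neither.

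Groups did not overlap with LPS higher for 19 genes in Lyz2-Cre cells (30.9% of all genes) and 17 in Hdac3f/f cells (28.3%), and with LPS lower for 6 genes in each (34.9% and 33.1%). These values are relative to the TMM scale. With library totals as the scale, that median over all genes moved to -0.46 in Lyz2-Cre cells and -0.72 in Hdac3f/f cells. The 27 genes then split into 11 higher and 7 lower in Lyz2-Cre cells (14.8% and 45.2% of all genes) and into 12 higher and 9 lower in Hdac3f/f cells (14.6% and 57.7%). Macrophage markers moved with the treatment: their summed level was 17781 to 19115 CPM with LPS against 5906 to 11267 CPM without it in Lyz2-Cre cells, and 21040 to 23002 CPM against 14155 to 17467 CPM in Hdac3f/f cells, with 4 of 8 called higher in each (Adgre1, Itgam, Fcgr1 and Cd14) and none lower. Much of that rise was Cd14, a receptor for LPS, at 4725 ± 113 CPM with LPS and 201 ± 73.4 CPM without it in Lyz2-Cre cells, and 4048 ± 311 CPM and 202 ± 27.9 CPM in Hdac3f/f cells (SD, n = 3 each), and Lyz2 added to it in Lyz2-Cre cells; the log2 changes of Csf1r, which were not called, were 0.05 and -0.03. Their part in the result was not tested. In bulk RNA, fewer cells of a type and less RNA per cell cannot be told apart.

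**Figure D1:**
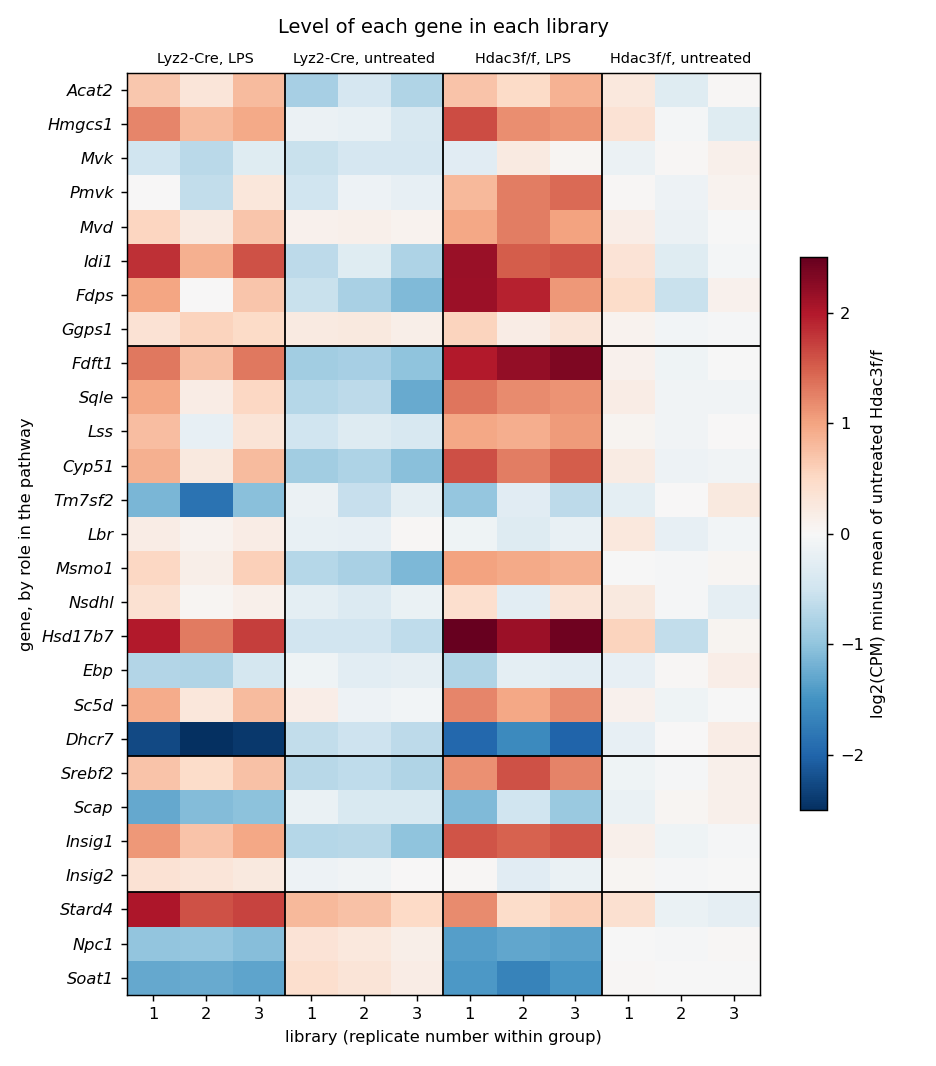
Level of the 27 genes (vertical axis, top to bottom by role: mevalonate steps, sterol steps, sensing, transport and storage) in the 12 libraries (horizontal axis, by group), as log2 CPM minus the mean log2 CPM of the untreated Hdac3f/f libraries. Red is higher and blue lower; among the strongest reds are Hsd17b7 and Fdft1 in LPS-treated Hdac3f/f libraries, and the strongest blues are Dhcr7 in LPS-treated Lyz2-Cre libraries.

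**Figure D2:**
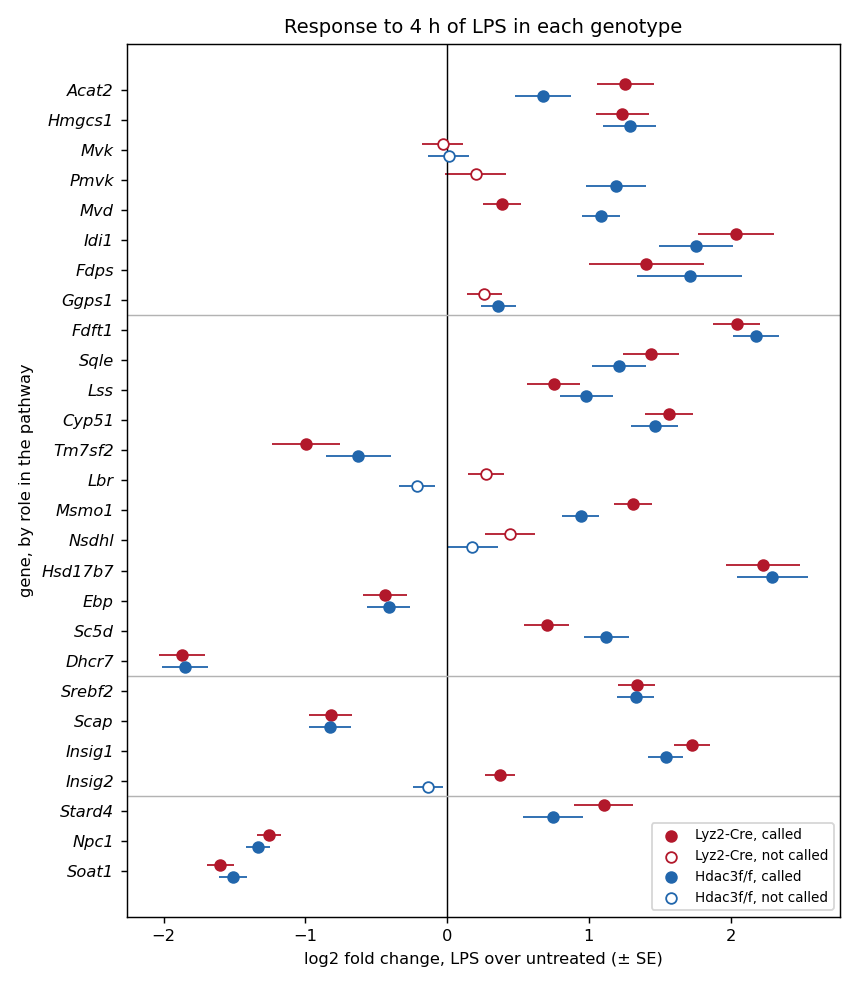
Log2 fold change with LPS, LPS over untreated, for each gene in Lyz2-Cre cells (red) and Hdac3f/f cells (blue), with bars of 1 SE and filled points for called genes. The 2 genotypes lie close together for most genes, from 2.23 and 2.29 for Hsd17b7 to -1.87 and -1.85 for Dhcr7; Pmvk and Mvd stand farther right in Hdac3f/f cells.

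The second question is how the genotypes differ. Untreated Lyz2-Cre cells had lower levels of 8 of the 27 genes than untreated Hdac3f/f cells (6.66% of all tested genes were lower) and none was called higher (5.12% of all genes). The 8 are Srebf2 and Insig1, 5 enzymes of the sterol arm (Fdft1, Sqle, Cyp51, Msmo1 and Dhcr7) and Acat2, and their fold differences lie between -0.60 and -0.90 on the log2 scale. Under LPS 14 genes were lower in Lyz2-Cre cells (16.9% of all genes) and 3 higher (15.7%), with 10 not called. Of the 8 genes, 7 were lower under LPS as well, all except Acat2 (3.83% of all genes were lower at both), joined by Mvk, Pmvk, Mvd, Fdps, Lss, Tm7sf2 and Hsd17b7. The 3 higher genes were Insig2, Stard4 and Npc1. The 2 comparisons between genotypes share no library, but both come from the same fit. The labels do not say whether treated and untreated libraries came from the same animals, so the 2 comparisons may not be independent. The calls of Srebf2, Fdft1 and Cyp51 at both treatments, of Insig1 and Msmo1 without LPS, and of Pmvk, Insig2 and Stard4 with LPS held under all 19 other settings.

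The median log2 difference of the 27 genes was -0.32 without LPS, where that of all tested genes was 0.03, and -0.50 with LPS, where that of all genes was 0.02. Untreated groups did not overlap, with Lyz2-Cre lower, for 13 genes (16.5% of all genes), and with Lyz2-Cre higher for 4 (20.0%). With LPS they did not overlap for 15 lower (22.7% of all genes) and 5 higher genes (20.5%). For the count of 0 higher genes without LPS by edgeR, 3 genes were higher at an unadjusted p under 0.05, and the DESeq2 Wald test called 3.

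The scale matters for the LPS comparison of genotypes. With library totals as the scale, where the typical gene (the median) was 0.29 higher in Lyz2-Cre cells, 4 of the 27 genes were lower (9.30% of all genes) and 5 higher (31.3%). The 4 were Srebf2, Fdft1, Cyp51 and Pmvk, and the 5 were Insig2, Stard4, Npc1, Lbr and Soat1. Without LPS the library totals gave 8 lower genes (7.10% of all genes), 7 of them shared with the TMM scale, and 1 higher (4.39%). LPS-treated Lyz2-Cre replicate 2 held the lowest value of its group for 22 of the 27 genes, and without it the count of lower genes was 6 in place of 14. Leaving out LPS-treated Hdac3f/f replicate 2 or replicate 3 gave 9. In untreated cells the count of 8 lower genes became 5 without Lyz2-Cre replicate 3, which held the lowest value of its group for 16 genes. It became 6 without Lyz2-Cre replicate 1, the library with little Lyz2, and also 6 without Lyz2-Cre replicate 2 or Hdac3f/f replicate 3.

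Markers of other cells moved with genotype. The 7 stromal markers summed to 33.3 to 44.3 CPM in LPS-treated Lyz2-Cre libraries against 815 to 1685 CPM in LPS-treated Hdac3f/f libraries, and all 6 that could be tested were lower. Without LPS they summed to 15.5 to 130 CPM in Lyz2-Cre libraries against 283 to 1359 CPM in Hdac3f/f libraries, with 5 of 6 lower; no stromal marker was at 0 throughout a group. Mast cell and basophil markers summed to 65.7 to 90.9 CPM in untreated Lyz2-Cre libraries against 37.0 to 41.0 CPM in untreated Hdac3f/f libraries, with 5 of 6 higher there and 5 of 6 higher, 1 lower, with LPS. Their sums with LPS overlapped, at 96.9 to 157 CPM in Lyz2-Cre libraries and 106 to 148 CPM in Hdac3f/f libraries. Neutrophil markers summed to 51.6 to 136 CPM without LPS in Lyz2-Cre libraries, against 173 to 321 CPM in Hdac3f/f libraries, with 2 of 6 lower. With LPS their sums overlapped, at 91.5 to 271 CPM in Lyz2-Cre libraries and 96.8 to 215 CPM in Hdac3f/f libraries, and 0 of 6 were called. Lymphocyte, dendritic cell and erythroid markers summed to at most 20.1, 7.71 and 7.61 CPM in any library. Of the tested markers 2 of 4, 0 of 4 and 0 of 1 were higher in untreated Lyz2-Cre cells. Under LPS 3 of 4, 1 of 4 and 1 of 1 were higher. Of the 8 macrophage markers, 1 was higher (Mertk) and 1 lower (Itgam) in untreated Lyz2-Cre cells, and 4 estimates were positive and 4 negative; with LPS 3 were higher and 3 lower. Their sum without LPS, 5906 to 11267 CPM in Lyz2-Cre libraries against 14155 to 17467 CPM in Hdac3f/f libraries, was set mainly by Lyz2, which averaged 3616 ± 3113 CPM and 10493 ± 1365 CPM (SD, n = 3 each) and was not called; Csf1r averaged 2225 ± 133 CPM and 1831 ± 79.8 CPM. Lyz2 is also the gene from which Cre is driven, so its difference between genotypes need not follow macrophage content. With LPS Lyz2 ranged from 6090 to 7728 CPM in Lyz2-Cre libraries and from 10511 to 12351 CPM in Hdac3f/f libraries. The part of these cell types in the results was not tested. Untreated Hdac3f/f replicate 1 had the most stromal RNA of its group (1359 CPM, against 283 and 445 CPM). It also had the highest value of its group for 18 of the 27 genes. Without it 7 of the 8 genes lower in untreated Lyz2-Cre cells were still called and Acat2 was not. Mvk (lower) and Stard4 (higher) were added. The untreated Hdac3f/f libraries left in still had more stromal RNA than any untreated Lyz2-Cre library. Leaving replicate 1 out thus did not test the part of stromal cells.

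**Figure D3:**
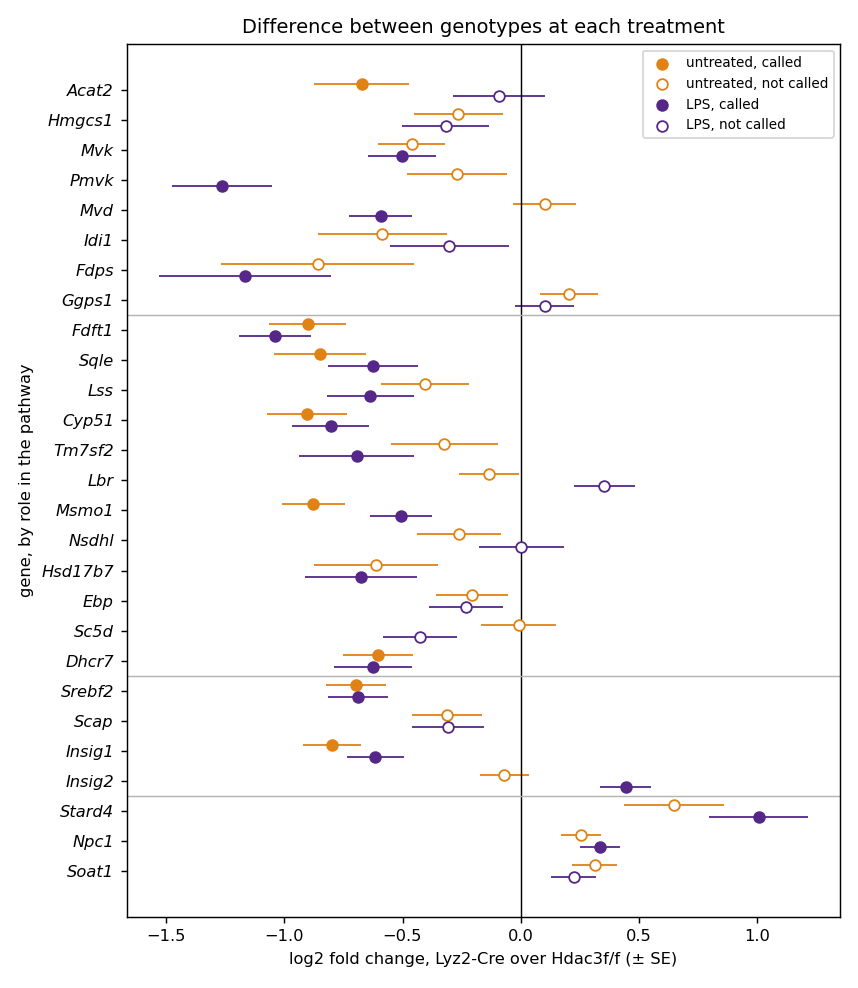
Log2 fold difference between genotypes, Lyz2-Cre over Hdac3f/f, for each gene without LPS (orange) and with it (purple), with bars of 1 SE and filled points for called genes. Points of Srebf2, Insig1 and the sterol steps other than Lbr and Nsdhl lie left of 0 or, for untreated Sc5d, at it; the lowest is -1.26 for Pmvk with LPS; Stard4, Npc1 and Soat1 lie right of 0 at both treatments.

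The third question, whether the response to LPS differed between genotypes, was tested as an interaction. Only Mvd was called among the 27 genes (1 lower in Lyz2-Cre cells, where 5.54% of all genes were; 0 higher, where 2.58% were). At an unadjusted p under 0.05, 2 genes had a lower and 2 a higher log2 response in Lyz2-Cre cells; the DESeq2 Wald test called 2 lower and 1 higher. The median interaction of the 27 genes was -0.02 on the log2 scale and that of all tested genes 0.02. For Srebf2 it was 0.01 ± 0.18, and for Insig1 0.18 ± 0.17. The largest estimates in absolute value were -0.99 ± 0.30 for Pmvk (edgeR adjusted p = 0.0608), -0.69 ± 0.19 for Mvd (adjusted p = 0.0411) and 0.58 ± 0.28 for Acat2 (adjusted p = 0.243). Under 11 of 18 other settings, library totals included, Mvd was not called.

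The sensing genes come first by role. Srebf2, the source of SREBP2, was measured at 354, 296 and 358 CPM in LPS-treated Lyz2-Cre libraries, 133, 138 and 128 in untreated Lyz2-Cre libraries, 474, 647 and 505 in LPS-treated Hdac3f/f libraries and 200.2, 210.5 and 236 in untreated Hdac3f/f libraries. LPS-treated libraries lay above untreated ones in both genotypes without overlap, and Lyz2-Cre libraries lay below Hdac3f/f libraries at both treatments without overlap. The log2 fold change with LPS was 1.34 ± 0.13 in Lyz2-Cre cells and 1.33 ± 0.13 in Hdac3f/f cells (edgeR adjusted p = 1.90e-06 and 1.34e-06), that is, 2.53-fold and 2.51-fold. Set against Hdac3f/f cells, Lyz2-Cre cells differed by -0.70 ± 0.13 without LPS (adjusted p = 0.0054) and -0.69 ± 0.13 with it (adjusted p = 0.00196). In every library Srebf2 thus had the order LPS-treated Hdac3f/f, LPS-treated Lyz2-Cre, untreated Hdac3f/f and untreated Lyz2-Cre, from high to low.

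Insig1, whose product holds Scap in the endoplasmic reticulum and whose gene is itself an SREBP2 target, was measured at 97.4, 74.4 and 89.4 CPM in LPS-treated Lyz2-Cre libraries, 27.8, 28.3 and 22.7 in untreated Lyz2-Cre libraries, 136, 127 and 136 in LPS-treated Hdac3f/f libraries and 49.9, 42.5 and 44.8 in untreated Hdac3f/f libraries. It had the same order of groups as Srebf2, again without overlap. It rose with LPS by 1.73 ± 0.12 in Lyz2-Cre cells and 1.54 ± 0.12 in Hdac3f/f cells, and it was lower in Lyz2-Cre cells, with a difference of -0.80 ± 0.12 without LPS (edgeR adjusted p = 0.00196) and -0.61 ± 0.12 with it (adjusted p = 0.00273). Insig2, which has a like role but is not induced by SREBP2 in the same way, was measured at 24.9, 24.1 and 23.1 CPM in LPS-treated Lyz2-Cre libraries, 17.9, 18.2 and 19.5 in untreated Lyz2-Cre libraries, 19.9, 15.9 and 17.3 in LPS-treated Hdac3f/f libraries and 20.0, 19.1 and 19.3 in untreated Hdac3f/f libraries. Its highest values were the 3 of LPS-treated Lyz2-Cre libraries, and the other 3 groups overlapped in part. Insig2 rose with LPS by 0.38 ± 0.11 in Lyz2-Cre cells (adjusted p = 0.00897), while its estimate in Hdac3f/f cells was -0.14 ± 0.11 and not called. The call in Lyz2-Cre cells was lost with no filter and with library totals, where the estimate was -0.0123. Under LPS it was higher in Lyz2-Cre cells by 0.44 ± 0.11 (adjusted p = 0.00839), and the interaction, 0.51 ± 0.15, had an adjusted p of 0.0544.

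Scap, the escort of SREBP2, was measured at 32.2, 36.6 and 38.2 CPM in LPS-treated Lyz2-Cre libraries, 69.3, 59.7 and 60.3 in untreated Lyz2-Cre libraries, 36.2, 55.6 and 40.9 in LPS-treated Hdac3f/f libraries and 69.2, 80.5 and 85.4 in untreated Hdac3f/f libraries. It fell with LPS, without overlap, in both genotypes, by a log2 change of -0.82 ± 0.15 in Lyz2-Cre cells and -0.83 ± 0.15 in Hdac3f/f cells (edgeR adjusted p = 5.01e-04 and 3.67e-04). Between genotypes the estimates were -0.31 without LPS and -0.31 with it, and neither was called. So Srebf2 and Insig1 rose while Scap fell in the same libraries. Scap shares 985 exon bases (13.23% of its own) with a transcript on the opposite strand in GENCODE M21, and how strand was treated in counting is not given in the sources used here.

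**Figure D4:**
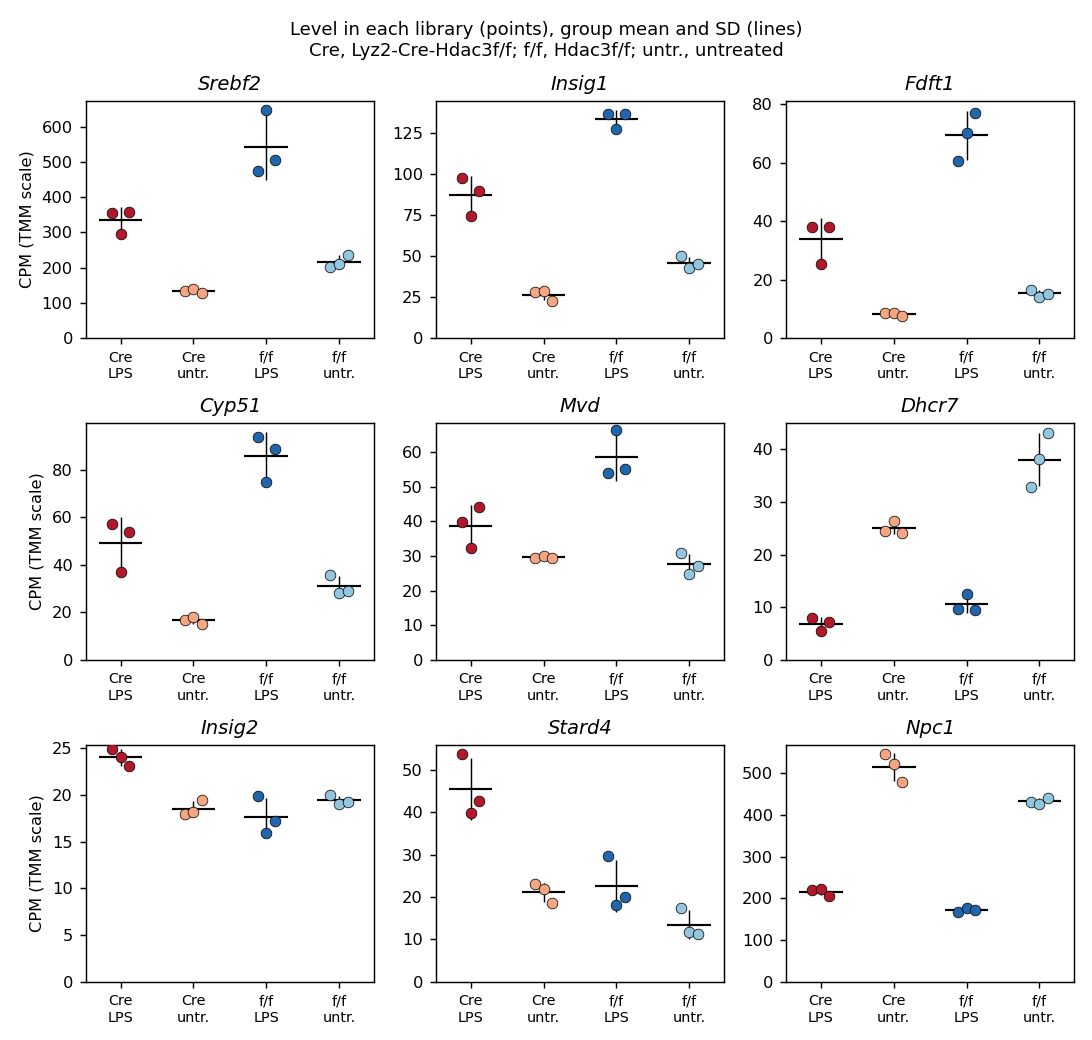
CPM (vertical axis, from 0) of 9 genes in each library, as points by group (horizontal axis: Lyz2-Cre with LPS, Lyz2-Cre untreated, Hdac3f/f with LPS, Hdac3f/f untreated), with the mean and SD of 3 libraries. Srebf2, Insig1, Fdft1 and Cyp51 are highest in LPS-treated Hdac3f/f libraries and lowest in untreated Lyz2-Cre libraries; Dhcr7 and Npc1 are low in all LPS-treated libraries; Insig2 and Stard4 are highest in LPS-treated Lyz2-Cre libraries.

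The mevalonate arm makes the isoprenoid diphosphates from acetyl-CoA, and 8 of the genes belong to it. With LPS 5 of 8 rose in Lyz2-Cre cells (62.5%, and 25.2% of all tested genes) and 7 of 8 in Hdac3f/f cells (87.5%, and 28.0% of all), and none fell. Idi1, which isomerises isopentenyl diphosphate, had among the largest rises. Its levels were 19.4, 10.2 and 16.5 CPM in LPS-treated Lyz2-Cre libraries, 3.50, 4.45 and 3.23 in untreated Lyz2-Cre libraries, 24.7, 15.7 and 16.4 in LPS-treated Hdac3f/f libraries and 6.98, 4.48 and 5.32 in untreated Hdac3f/f libraries. LPS-treated libraries of each genotype lay above the untreated ones without overlap, with log2 changes of 2.04 ± 0.27 in Lyz2-Cre cells and 1.75 ± 0.26 in Hdac3f/f cells (edgeR adjusted p = 3.24e-05 and 6.95e-05). Between genotypes Idi1 was not called.

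Acat2, the cytosolic thiolase of the first step, was measured at 9.84, 7.57 and 10.7 CPM in LPS-treated Lyz2-Cre libraries, 3.45, 4.63 and 3.63 in untreated Lyz2-Cre libraries, 10.1, 8.57 and 11.2 in LPS-treated Hdac3f/f libraries and 7.37, 5.01 and 6.29 in untreated Hdac3f/f libraries. The untreated groups did not overlap, and the LPS-treated groups did. Acat2 rose with LPS by 1.26 in Lyz2-Cre cells and 0.68 in Hdac3f/f cells, and without LPS it was lower in Lyz2-Cre cells by a log2 difference of -0.67 ± 0.20 (edgeR adjusted p = 0.0472). Under 9 of 19 other settings it was not called, with adjusted p-values up to 0.142.

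Mvk, mevalonate kinase, was measured at 17.9, 15.8 and 20.6 CPM in LPS-treated Lyz2-Cre libraries, 17.3, 19.1 and 19.1 in untreated Lyz2-Cre libraries, 20.9, 29.6 and 26.4 in LPS-treated Hdac3f/f libraries and 22.9, 25.8 and 27.7 in untreated Hdac3f/f libraries. It was not called with LPS in either genotype (-0.03 and 0.01), and all Lyz2-Cre values lay below all Hdac3f/f values at each treatment. Under LPS the difference between genotypes was -0.50 ± 0.14 (edgeR adjusted p = 0.0193), and without LPS it was -0.46 ± 0.14 and not called (adjusted p = 0.0533). Both lie near the threshold: the call with LPS was lost under 6 of 19 other settings, and the difference without LPS was called under 9 of 19. Pmvk, phosphomevalonate kinase, was measured at 11.1, 7.28 and 13.4 CPM in LPS-treated Lyz2-Cre libraries, 7.87, 10.1 and 9.65 in untreated Lyz2-Cre libraries, 19.5, 27.05 and 29.7 in LPS-treated Hdac3f/f libraries and 11.4, 10.1 and 11.9 in untreated Hdac3f/f libraries. LPS-treated Hdac3f/f libraries stood above all others, while the 2 Lyz2-Cre groups overlapped. Pmvk rose with LPS in Hdac3f/f cells by 1.19 ± 0.21 (adjusted p = 2.74e-04), with an estimate of 0.20 ± 0.21 in Lyz2-Cre cells that was not called. Under LPS it had the largest difference between genotypes of the 27 genes, -1.26 ± 0.21 (adjusted p = 0.00113), 0.417-fold.

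Mvd, the decarboxylase that makes isopentenyl diphosphate, was measured at 40.0, 32.2 and 44.1 CPM in LPS-treated Lyz2-Cre libraries, 29.5, 29.9 and 29.3 in untreated Lyz2-Cre libraries, 53.8, 66.4 and 55.2 in LPS-treated Hdac3f/f libraries and 30.9, 24.7 and 27.1 in untreated Hdac3f/f libraries. Without LPS the genotypes overlapped, and with LPS all Lyz2-Cre values lay below all Hdac3f/f values. The log2 change with LPS was 0.39 ± 0.13 in Lyz2-Cre cells (edgeR adjusted p = 0.0257) and 1.08 ± 0.13 in Hdac3f/f cells (adjusted p = 1.34e-05). Under LPS the difference between genotypes was -0.59 ± 0.13 (adjusted p = 0.00602). The change in Lyz2-Cre cells was not called under 6 of 19 other settings, among them library totals, where it was -0.000438.

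Fdps, farnesyl diphosphate synthase, was the least abundant, at 1.69, 0.867 and 1.38 CPM in LPS-treated Lyz2-Cre libraries, 0.583, 0.489 and 0.398 in untreated Lyz2-Cre libraries, 3.75, 3.27 and 1.81 in LPS-treated Hdac3f/f libraries and 1.17, 0.584 and 0.920 in untreated Hdac3f/f libraries. LPS-treated libraries lay above untreated ones in each genotype, though the LPS-treated Lyz2-Cre and untreated Hdac3f/f groups overlapped. Its log2 change with LPS was 1.40 ± 0.41 in Lyz2-Cre cells and 1.71 ± 0.37 in Hdac3f/f cells, and under LPS it was lower in Lyz2-Cre cells by -1.17 ± 0.36 (edgeR adjusted p = 0.0279), a call lost under 5 of 19 other settings. In GENCODE M21, 1124 of its exon bases (26.71%) are shared with a predicted gene on the same strand, so the count can be split between them, and its level is uncertain. The other members of the arm were Hmgcs1, the synthase ahead of mevalonate, and Ggps1, which makes geranylgeranyl diphosphate. Hmgcs1 averaged 52.7 ± 8.33 CPM with LPS and 22.4 ± 2.09 without it in Lyz2-Cre cells, and 65.7 ± 13.8 CPM with LPS and 26.8 ± 6.26 without it in Hdac3f/f cells (SD, n = 3 each). It rose with LPS by 1.24 in Lyz2-Cre cells and 1.29 in Hdac3f/f cells, with no call between genotypes. Ggps1 rose in Hdac3f/f cells by 0.36 ± 0.12 (adjusted p = 0.0228), lost under 6 of 19 other settings and turned to -0.27 with library totals, and its estimate in Lyz2-Cre cells was 0.26 ± 0.12 and not called.

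The sterol arm turns farnesyl diphosphate into squalene, lanosterol and cholesterol, and 12 of the genes belong to it. With LPS 7 of 12 rose (58.3%) and 3 fell (25.0%) in each genotype, where 25.2% of all genes rose and 27.7% fell in Lyz2-Cre cells, and 28.0% and 32.1% in Hdac3f/f cells; the share that fell was thus no larger than that of all genes. Without LPS 5 of 12 were lower in Lyz2-Cre cells (41.7%, and 6.66% of all genes), and all 12 estimates were negative; with LPS 8 of 12 were lower (66.7%, and 16.9% of all genes). Fdft1, squalene synthase, makes the first step of this arm. It was measured at 38.1, 25.3 and 37.8 CPM in LPS-treated Lyz2-Cre libraries, 8.41, 8.59 and 7.56 in untreated Lyz2-Cre libraries, 60.5, 70.3 and 77.1 in LPS-treated Hdac3f/f libraries and 16.5, 14.2 and 15.2 in untreated Hdac3f/f libraries. No 2 groups overlapped, and LPS-treated Hdac3f/f libraries were highest. Fdft1 rose with LPS 4.12-fold in Lyz2-Cre cells and 4.53-fold in Hdac3f/f cells, log2 changes of 2.04 ± 0.16 and 2.18 ± 0.16 (edgeR adjusted p = 3.26e-07 and 9.60e-08). It was lower in Lyz2-Cre cells by -0.90 ± 0.16 without LPS (adjusted p = 0.00494) and -1.04 ± 0.15 with it (adjusted p = 5.55e-04). In GENCODE M21, 774 of its exon bases (18.31%) lie across from Ctsb, a cathepsin gene on the opposite strand. Ctsb averaged 10261 ± 822 and 12157 ± 1031 CPM in Lyz2-Cre cells with and without LPS. In Hdac3f/f cells it averaged 12442 ± 316 and 12333 ± 1241 CPM with and without LPS (SD, n = 3 each). It was called in none of the comparisons. With LPS its Lyz2-Cre values (9482 to 11120 CPM) lay below its Hdac3f/f values (12098 to 12718 CPM), and without LPS the genotypes overlapped. How strand was treated in counting is not given in the sources used here, so the level of Fdft1 is uncertain.

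Sqle, squalene epoxidase, was measured at 51.2, 30.0 and 37.9 CPM in LPS-treated Lyz2-Cre libraries, 16.1, 16.8 and 11.0 in untreated Lyz2-Cre libraries, 66.4, 59.5 and 57.6 in LPS-treated Hdac3f/f libraries and 29.7, 24.6 and 24.9 in untreated Hdac3f/f libraries. LPS-treated libraries lay above untreated ones and Lyz2-Cre libraries below Hdac3f/f libraries, each without overlap. Its log2 changes with LPS were 1.44 ± 0.20 in Lyz2-Cre cells and 1.21 ± 0.19 in Hdac3f/f cells; its differences between genotypes were -0.85 ± 0.20 without LPS (edgeR adjusted p = 0.0163) and -0.62 ± 0.19 with it (adjusted p = 0.0256). The call without LPS was lost when untreated Lyz2-Cre replicate 3 was left out, and the call with LPS under 5 of 19 other settings (library totals, and leaving out replicate 2 or 3 of either LPS-treated group). Lss, which closes the rings of lanosterol, was measured at 26.4, 13.5 and 19.4 CPM in LPS-treated Lyz2-Cre libraries, 11.0, 12.4 and 11.7 in untreated Lyz2-Cre libraries, 30.2, 29.2 and 32.6 in LPS-treated Hdac3f/f libraries and 16.3, 14.6 and 15.7 in untreated Hdac3f/f libraries. LPS-treated Hdac3f/f libraries stood above all others, and LPS-treated Lyz2-Cre replicate 2 lay within the range of untreated libraries. Lss was lower in Lyz2-Cre cells under LPS by -0.64 ± 0.18 (adjusted p = 0.0203), which was lost without that library, without LPS-treated Hdac3f/f replicate 3, with library totals and with only the groups of the comparison in the fit.

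Cyp51, the demethylase that acts on lanosterol, was measured at 57.0, 36.8 and 53.7 CPM in LPS-treated Lyz2-Cre libraries, 16.8, 18.1 and 14.9 in untreated Lyz2-Cre libraries, 93.9, 74.8 and 88.8 in LPS-treated Hdac3f/f libraries and 35.8, 28.3 and 29.1 in untreated Hdac3f/f libraries. The 4 groups did not overlap, with the same order as Srebf2. Its log2 changes with LPS were 1.57 ± 0.17 in Lyz2-Cre cells and 1.47 ± 0.17 in Hdac3f/f cells, and it was lower in Lyz2-Cre cells by -0.90 ± 0.17 without LPS (edgeR adjusted p = 0.00579) and -0.80 ± 0.16 with it (adjusted p = 0.00344). Msmo1, which with Nsdhl and Hsd17b7 removes methyl groups from the sterol ring, was measured at 66.0, 50.4 and 69.4 CPM in LPS-treated Lyz2-Cre libraries, 27.8, 26.0 and 21.0 in untreated Lyz2-Cre libraries, 91.6, 87.9 and 84.6 in LPS-treated Hdac3f/f libraries and 45.2, 44.7 and 47.5 in untreated Hdac3f/f libraries. It too had 4 groups without overlap, in the same order, with log2 changes of 1.31 with LPS in Lyz2-Cre cells and 0.94 in Hdac3f/f cells. Lyz2-Cre cells had less of it, by -0.88 ± 0.13 without LPS (adjusted p = 0.0018) and -0.51 ± 0.13 with it (adjusted p = 0.0118), the second lost with library totals and without LPS-treated Lyz2-Cre replicate 2.

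Hsd17b7, a reductase of that step, had the largest rise of the 27 genes. It was measured at 21.6, 13.3 and 18.1 CPM in LPS-treated Lyz2-Cre libraries, 3.89, 3.91 and 3.48 in untreated Lyz2-Cre libraries, 31.7, 23.9 and 29.2 in LPS-treated Hdac3f/f libraries and 7.98, 3.55 and 5.68 in untreated Hdac3f/f libraries. The rise was without overlap in each genotype, 4.69-fold in Lyz2-Cre cells and 4.90-fold in Hdac3f/f cells, log2 changes of 2.23 ± 0.26 and 2.29 ± 0.25 (edgeR adjusted p = 1.03e-05 and 4.44e-06). Under LPS it was lower in Lyz2-Cre cells by -0.68 ± 0.24 (adjusted p = 0.0442), and under 9 of 19 other settings this was not called. Its partner Nsdhl was called in no comparison, with LPS estimates of 0.44 in Lyz2-Cre cells and 0.18 in Hdac3f/f cells; the estimate in Lyz2-Cre cells (adjusted p = 0.0528) was called under 10 of 19 other settings. Sc5d, a sterol desaturase, averaged 27.7 ± 6.18 CPM with LPS and 17.0 ± 1.85 without it in Lyz2-Cre cells, and 37.3 ± 3.50 CPM with LPS and 17.1 ± 1.29 without it in Hdac3f/f cells (SD, n = 3 each). It rose by 0.70 in Lyz2-Cre cells and 1.12 in Hdac3f/f cells and was not called between genotypes. Its difference between genotypes with LPS, -0.43 ± 0.16 (edgeR adjusted p = 0.053), was called under 5 of 19 other settings.

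Against the direction of these enzymes, 3 genes of the arm fell with LPS. Dhcr7, the reductase of the last step to cholesterol, was measured at 7.91, 5.49 and 7.15 CPM in LPS-treated Lyz2-Cre libraries, 24.5, 26.4 and 24.2 in untreated Lyz2-Cre libraries, 9.73, 12.6 and 9.43 in LPS-treated Hdac3f/f libraries and 32.9, 38.1 and 43.2 in untreated Hdac3f/f libraries. LPS-treated libraries of both genotypes lay below all untreated ones, and Lyz2-Cre lay below Hdac3f/f at each treatment. Dhcr7 fell to 0.274 of its untreated level in Lyz2-Cre cells and to 0.278 in Hdac3f/f cells, log2 changes of -1.87 ± 0.16 and -1.85 ± 0.16 (edgeR adjusted p = 6.88e-07 and 4.41e-07). It was lower in Lyz2-Cre cells by -0.60 ± 0.15 without LPS (adjusted p = 0.0222) and -0.63 ± 0.17 with it (adjusted p = 0.0134). The call without LPS was lost when any 1 of 5 libraries was left out (each untreated Lyz2-Cre library, and untreated Hdac3f/f replicates 2 and 3), and the call with LPS under 3 of 19 other settings, library totals among them. Tm7sf2, a sterol reductase, was measured at 4.89, 3.00 and 5.21 CPM in LPS-treated Lyz2-Cre libraries, 9.77, 7.21 and 9.15 in untreated Lyz2-Cre libraries, 5.49, 8.89 and 6.82 in LPS-treated Hdac3f/f libraries and 9.15, 10.8 and 12.7 in untreated Hdac3f/f libraries. It fell with LPS by a log2 change of -1.0 ± 0.24 in Lyz2-Cre cells and -0.63 ± 0.23 in Hdac3f/f cells, each without overlap, the change in Hdac3f/f cells not called under 6 of 19 other settings, and under LPS it was lower in Lyz2-Cre cells by -0.69 ± 0.24 (adjusted p = 0.0446), not called under 9 of 19 other settings. It shares 532 exon bases (12.08%) with Vps51 on the same strand in GENCODE M21, and its level is uncertain for that reason. That annotation gives Tm7sf2 4403 exon bases, where the deposited length is 5593, so this share need not hold for the counts used.

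Ebp, a sterol isomerase, was measured at 17.7, 17.3 and 21.6 CPM in LPS-treated Lyz2-Cre libraries, 27.4, 24.3 and 25.0 in untreated Lyz2-Cre libraries, 17.4, 24.6 and 24.5 in LPS-treated Hdac3f/f libraries and 25.5, 30.0 and 33.1 in untreated Hdac3f/f libraries. Its LPS values lay below the untreated ones in each genotype, closely, with log2 changes of -0.44 ± 0.15 in Lyz2-Cre cells and -0.41 ± 0.15 in Hdac3f/f cells (edgeR adjusted p = 0.0289 and 0.0327), and each of them was not called under 6 of 19 other settings. Lbr, a nuclear membrane protein with the same reductase activity as Tm7sf2, averaged 22.9 ± 0.804 CPM with LPS and 19.0 ± 1.74 without it in Lyz2-Cre cells, and 18.0 ± 1.24 CPM with LPS and 20.8 ± 3.43 without it in Hdac3f/f cells (SD, n = 3 each). Unlike Tm7sf2 it was called in no comparison. Its difference between genotypes with LPS, 0.35 ± 0.13 (edgeR adjusted p = 0.0534), was called under 4 of 19 other settings.

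Of the 3 genes of transport and storage, Stard4 rose with LPS in both genotypes, as most of the enzymes did, and Npc1 and Soat1 fell. Stard4, a cytosolic carrier of sterols, was measured at 53.8, 39.9 and 42.7 CPM in LPS-treated Lyz2-Cre libraries, 23.0, 21.8 and 18.6 in untreated Lyz2-Cre libraries, 29.7, 18.2 and 20.0 in LPS-treated Hdac3f/f libraries and 17.4, 11.7 and 11.3 in untreated Hdac3f/f libraries. LPS-treated Lyz2-Cre libraries stood above all others. Stard4 rose with LPS by 1.11 ± 0.21 in Lyz2-Cre cells and 0.75 ± 0.21 in Hdac3f/f cells (edgeR adjusted p = 6.01e-04 and 0.00818). Under LPS it was higher in Lyz2-Cre cells, 2.01-fold, a log2 difference of 1.01 ± 0.21 (adjusted p = 0.0039), the largest higher value of the 27 genes; without LPS the difference was 0.65 ± 0.21 and not called (adjusted p = 0.0653).

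Npc1, which lets cholesterol out of late endosomes and lysosomes, was measured at 219, 222 and 207 CPM in LPS-treated Lyz2-Cre libraries, 546, 522 and 479 in untreated Lyz2-Cre libraries, 167, 176 and 171 in LPS-treated Hdac3f/f libraries and 432, 426 and 439.9 in untreated Hdac3f/f libraries. All LPS-treated libraries lay below all untreated ones. Npc1 fell to 0.419 of its untreated level in Lyz2-Cre cells and 0.396 in Hdac3f/f cells, log2 changes of -1.26 ± 0.09 and -1.34 ± 0.09 (edgeR adjusted p = 6.83e-08 and 2.58e-08), and under LPS it was higher in Lyz2-Cre cells by 0.33 ± 0.08 (adjusted p = 0.0105), a call lost with no filter on low counts. Soat1, which esterifies cholesterol for storage in droplets, was measured at 168, 168 and 162 CPM in LPS-treated Lyz2-Cre libraries, 542, 506 and 461 in untreated Lyz2-Cre libraries, 151, 127 and 149 in LPS-treated Hdac3f/f libraries and 412, 399.6 and 404 in untreated Hdac3f/f libraries. It fell to 0.330 of its untreated level in Lyz2-Cre cells and 0.351 in Hdac3f/f cells, log2 changes of -1.60 ± 0.10 and -1.51 ± 0.10. Lyz2-Cre values lay above Hdac3f/f values at both treatments without overlap, by 0.31 ± 0.09 without LPS and 0.22 ± 0.10 with it, and neither difference was called. The first lay at the threshold and was called under 3 of 19 other settings, the second under 1 of 19.

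Per kilobase of the deposited gene length, the order of levels within the pathway changed with LPS. That length need not be the length of the transcripts present, and places between genes depend on it. In LPS-treated cells of both genotypes Srebf2 was highest, at 46.8 ± 4.85 CPM per kb in Lyz2-Cre cells and 75.4 ± 12.9 in Hdac3f/f cells (SD, n = 3 each), followed by Insig1 at 28.1 ± 3.77 and 43.1 ± 1.70 and Mvd at 20.9 ± 3.25 and 31.5 ± 3.71. In LPS-treated Lyz2-Cre cells Npc1 came next at 20.1 ± 0.762, within the SD of Mvd. In untreated cells Soat1 was highest, at 51.4 ± 4.15 CPM per kb in Lyz2-Cre cells and 41.4 ± 0.642 in Hdac3f/f cells, and Npc1 came next at 48.1 ± 3.14 and 40.3 ± 0.655. In Lyz2-Cre cells those neighbours differed by less than the SD of Soat1. After them came Srebf2, at 18.5 ± 0.747 and 30.0 ± 2.60. Among the enzymes of synthesis Mvd had the highest level per kb in all 4 groups, and Fdps had the lowest, from 0.312 ± 0.0988 and 0.116 ± 0.0220 in Lyz2-Cre cells with and without LPS to 0.700 ± 0.240 and 0.212 ± 0.0700 in Hdac3f/f cells with and without LPS. The level of Fdps is uncertain because of the exon bases it shares with a predicted gene. Dhcr7 was at 1.18 ± 0.213 CPM per kb with LPS and 4.30 ± 0.203 without it in Lyz2-Cre cells, against 1.82 ± 0.296 and 6.54 ± 0.880 in Hdac3f/f cells.

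**Figure D5:**
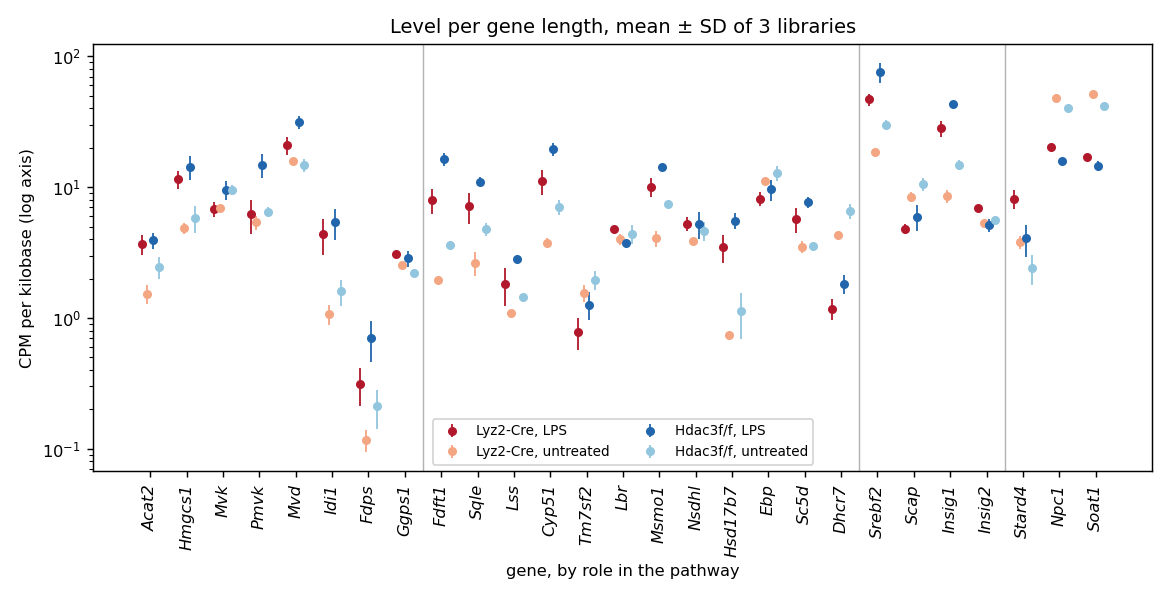
CPM per kilobase of gene length (vertical log axis) of the 27 genes, by role along the horizontal axis, with the mean and SD of 3 libraries per group. Fdps is lowest in all groups; the dark points (LPS) lie above the pale points (untreated) of the same hue for most synthesis genes, Srebf2 and Insig1, and below them for Dhcr7, Scap, Npc1 and Soat1.

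Variation within groups was compared between pairs of genes. Across the 12 libraries, after subtracting each group's mean of log2(CPM + 0.5), the median Pearson r over 351 pairs of the 27 genes was 0.328; 251 pairs (71.5%) were above 0 and 21 (5.98%) above 0.8. Over all pairs of the 14286 tested genes the median r was -0.00176, with 49.9% of pairs above 0 and 3.22% above 0.8. The highest were Hmgcs1 with Stard4 (0.960), Sqle with Insig1 (0.940), Idi1 with Cyp51 (0.921), Dhcr7 with Srebf2 (0.918) and Cyp51 with Insig1 (0.914). By median r with the other genes, Hsd17b7 (0.541), Cyp51 (0.534) and Fdft1 (0.515) ranked first, and Scap was at -0.349. These values are a description over 12 libraries, and all genes share the libraries' depth and scaling.

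Genes around the pathway were read from 5 lists, whose called shares are set against those of all tested genes: with LPS 25.2% of all genes rose and 27.7% fell in Lyz2-Cre cells, and 28.0% and 32.1% in Hdac3f/f cells, and in Lyz2-Cre cells 5.12% were higher and 6.66% lower than in Hdac3f/f cells without LPS, and 15.7% and 16.9% with it. In fatty acid synthesis, controlled by the related factor Srebf1, 15 of 16 genes were tested: with LPS 6 rose and 4 fell in Lyz2-Cre cells (40.0% and 26.7%) and 3 rose and 5 fell in Hdac3f/f cells (20.0% and 33.3%), the falls close to those of all genes. Srebf1 rose by 0.94 ± 0.14 in Lyz2-Cre cells and 1.12 ± 0.14 in Hdac3f/f cells, and Me1, malic enzyme, by 2.51 ± 0.28 and 0.99 ± 0.26; the desaturase Fads1 fell by a log2 change of -2.52 ± 0.12 and -2.59 ± 0.13, and the elongase Elovl5 by -0.89 ± 0.10 and -1.31 ± 0.10. Between genotypes 1 was higher and 5 lower in Lyz2-Cre cells without LPS, and 2 higher and 3 lower with it. Scd1, a desaturase, averaged 0.340 ± 0.208 CPM in Lyz2-Cre cells and 3.89 ± 2.84 CPM in Hdac3f/f cells without LPS, and 0.688 ± 0.277 and 3.63 ± 1.77 CPM with it (SD, n = 3 each). It differed by -3.47 ± 0.60 without LPS (edgeR adjusted p = 0.00416) and -2.40 ± 0.58 with it (adjusted p = 0.00831). Me1 was lower in untreated Lyz2-Cre cells (-1.31 ± 0.28) and Acacb, an acetyl-CoA carboxylase, higher (1.56 ± 0.45); under LPS Fasn, fatty acid synthase, was lower (-0.50 ± 0.16), and Elovl5 (0.40 ± 0.10) and Gpam (0.65 ± 0.21) were higher. Me1 had a larger response to LPS in Lyz2-Cre cells by the interaction test (1.51 ± 0.38, adjusted p = 0.0285).

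Of 18 genes for the transport and cleavage of SREBPs and the degradation of sterol enzymes, 10 rose and 2 fell with LPS in Lyz2-Cre cells (55.6% and 11.1%), and 8 rose and 3 fell in Hdac3f/f cells (44.4% and 16.7%). Rnf145, a ubiquitin ligase of the endoplasmic reticulum, rose by 1.76 ± 0.10 in Lyz2-Cre cells and 2.40 ± 0.10 in Hdac3f/f cells, with a smaller response in Lyz2-Cre cells by the interaction test (-0.64 ± 0.14, edgeR adjusted p = 0.016). Sar1a, a GTPase of vesicle budding, rose by 0.76 and 0.85. Among the falls were the SREBP protease Mbtps2 in Hdac3f/f cells (-1.02 ± 0.15) and Fbxw7, which targets nuclear SREBPs for degradation, in Lyz2-Cre cells (-0.62 ± 0.15). Without LPS 1 of 18 was higher in Lyz2-Cre cells (Rnf145, 0.40 ± 0.10) and 2 were lower (Pgrmc1, -0.35 ± 0.09, and the coat protein Sec24d, -0.37 ± 0.11). With LPS 4 were higher, led by Mbtps2 (0.82 ± 0.15) and Sec23a (0.72 ± 0.19); 0 were lower by edgeR, against 3 at an unadjusted p under 0.05 and 2 by the DESeq2 Wald test.

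For the use of isoprenoids outside sterols (prenylation, dolichol and ubiquinone), 16 of 17 genes were tested. With LPS 4 rose and 2 fell in Lyz2-Cre cells (25.0% and 12.5%), and 3 rose and 7 fell in Hdac3f/f cells (18.8% and 43.8%); the share that rose in Lyz2-Cre cells was that of all genes. Pdss1, which makes the ubiquinone tail, rose by 0.60 ± 0.18 in Lyz2-Cre cells and 1.32 ± 0.18 in Hdac3f/f cells. Between untreated genotypes edgeR called 0 of 16; 2 were higher and 0 lower at an unadjusted p under 0.05, and the DESeq2 Wald test called 1. With LPS 2 were higher in Lyz2-Cre cells, Nus1, of dolichol synthesis (0.47 ± 0.09), and the prenyl protein protease Zmpste24 (0.60 ± 0.11).

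Of 14 genes for sterol uptake and transfer 13 were tested: 4 rose and 5 fell with LPS in Lyz2-Cre cells (30.8% and 38.5%), and 5 rose and 6 fell in Hdac3f/f cells (38.5% and 46.2%). Gramd1a, which moves cholesterol from the plasma membrane to the endoplasmic reticulum, rose by 1.77 ± 0.11 in Lyz2-Cre cells and 2.76 ± 0.12 in Hdac3f/f cells, a smaller response in Lyz2-Cre cells by the interaction test (-1.0 ± 0.16, edgeR adjusted p = 0.0034). Lipa, lysosomal acid lipase, fell by a log2 change of -1.53 ± 0.09 in Lyz2-Cre cells and -1.95 ± 0.09 in Hdac3f/f cells. Without LPS Scarb2 was higher in Lyz2-Cre cells (0.64 ± 0.14), and the lipoprotein receptors Scarb1 (-0.60 ± 0.13) and Lrp1 (-0.60 ± 0.14) were lower. With LPS 3 were lower, led by Gramd1a (-0.91 ± 0.11) and Stard3 (-0.75 ± 0.14).

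In the list of oxysterols and efflux 11 of 13 genes were tested. Ch25h, which makes an oxysterol that holds SREBP2 back, averaged 20.4 ± 2.60 CPM with LPS and 0.497 ± 0.457 without it in Lyz2-Cre cells, and 51.5 ± 17.3 CPM with LPS and 0.473 ± 0.0427 without it in Hdac3f/f cells (SD, n = 3 each). Its log2 changes, 5.35 ± 0.41 and 6.74 ± 0.42, were the largest rises of the list, and their size rests on the few untreated counts. It was joined by Nr1h3, the oxysterol receptor gene, at 0.99 ± 0.15 and 1.99 ± 0.15. Nceh1, which hydrolyses cholesteryl esters, fell by a log2 change of -3.08 ± 0.11 in Lyz2-Cre cells and -2.65 ± 0.11 in Hdac3f/f cells, and Cyp27a1, a sterol hydroxylase, by -3.25 ± 0.21 and -2.23 ± 0.20. In all, 3 rose and 4 fell in Lyz2-Cre cells (27.3% and 36.4%), and 5 rose and 3 fell in Hdac3f/f cells (45.5% and 27.3%), so the rises in Lyz2-Cre cells were close to those of all genes. Between genotypes 3 were higher in untreated Lyz2-Cre cells, among them the esterifying enzyme Soat2 (1.16 ± 0.22) and the cholesterol exporter Abca1 (1.03 ± 0.21, edgeR adjusted p = 0.00867). Under LPS Abca1 was again higher (1.06 ± 0.21, adjusted p = 0.00288) and 7 genes were lower. By lowest p these began with Nr1h3 (-0.92 ± 0.15) and Cyp27a1 (-1.32 ± 0.22), while the lowest estimate of the list was -1.34. For 4 of the 11 (36.4%, and 5.54% of all tested genes) the response to LPS was lower in Lyz2-Cre cells by the interaction test. Those of lowest p were Abcg1, another exporter (-1.12 ± 0.20), and Nr1h3 (-1.01 ± 0.20), while the lowest interaction estimate of the list was -1.39.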

How the data were processed

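Total RNA of the 12 libraries was sequenced, and the authors deposited whole-number counts per gene, with coordinates and gene lengths. The submitters' processing notes name TopHat2 and mm10; the counter, the annotation release and the use of strand are not given in the sources used here. The 12 FPKM columns of the same table were not used. The labels do not say whether the replicates came from separate animals, so p-values measure the spread between these libraries, which may be technical. No 2 libraries of a group agreed within sampling noise (chi-square per gene 7.98 to 46.2).

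The deposited counts were fitted as they stand in edgeR 4.0.16 (R 4.3.3), with filterByExpr, TMM factors (0.716 to 1.26), 1 coefficient for each of the 4 groups and the quasi-likelihood test. There were 5 contrasts: LPS over untreated in each genotype, Lyz2-Cre over Hdac3f/f at each treatment, and the interaction, taken as the LPS response in Lyz2-Cre cells less the one in Hdac3f/f cells. A contrast of LPS and a contrast of genotypes share libraries, so they are not independent. P-values were Benjamini-Hochberg adjusted over the 14286 tested genes, with 0.05 as the threshold; SE is the log2 fold change divided by the root of F. The scripts were tested on simulated data.

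The members and gene lists were chosen with earlier results of these data known. Values in every library are given for genes called in a genotype contrast or the interaction, for Srebf2, Scap, Insig1 and Insig2, and for the 3 largest rises and every fall with LPS; from each related list, up to 2 called genes of lowest p per direction and contrast were eligible to be named. Exon overlaps came from GENCODE M21, which gives 25 of the 27 genes the same coordinates as the deposited table; 11 of the 27 share exon bases with another gene. Alternatives were DESeq2 1.42.0 size factors, library totals, no filter, the DESeq2 Wald test, only the groups of a contrast, robust dispersion, a replicate block and leaving out each library.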

Additional observations from a re-analysis of the deposited data

Results flagged for a closer look

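Mvd was the member whose response to LPS differed between the genotypes in the test of the difference itself. Its interaction was -0.69 ± 0.19 on the log2 scale (edgeR adjusted p = 0.0411), from a change with LPS of 0.39 ± 0.13 in Lyz2-Cre cells and 1.08 ± 0.13 in Hdac3f/f cells, with 3 libraries per group. All 3 LPS-treated Lyz2-Cre libraries lay below all 3 LPS-treated Hdac3f/f libraries. Over 18 other settings the estimate ran from -0.78 to -0.44 and the adjusted p from 0.00731 to 0.157, and 11 of these settings lost the call, the replicate block and library totals among them.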

How the results depend on the processing

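Counts of called genes among the 27 are given as higher and lower. Shares of all tested genes were given above for the main fit and for library totals only. Under the other settings a changed count need not be particular to these 27 genes. Between untreated genotypes the counts of 0 higher and 8 lower became 1 higher with library totals, 1 with no filter, 3 with the DESeq2 Wald test and 1 with the replicate block; leaving out each library gave 0 to 2 higher and 5 to 9 lower. Between LPS-treated genotypes, 3 higher and 14 lower became 5 higher and 4 lower with library totals, and 3 to 4 higher and 6 to 14 lower without each library. For the interaction, 0 higher and 1 lower became 1 and 0 with library totals and 1 and 2 with the DESeq2 Wald test, 2 lower with no filter, and 0 to 1 higher and 0 to 2 lower without each library. With LPS in Lyz2-Cre cells leaving out each library gave 15 to 18 higher and 5 to 6 lower, and in Hdac3f/f cells 16 to 17 higher and 4 to 6 lower. Where a library was left out its group kept 2. Library totals turned 8 of 54 LPS estimates round. In 4 of them a call was involved: 3 called ones, of Mvd (to -0.000438) and Insig2 (to -0.0123) in Lyz2-Cre cells and Ggps1 (to -0.27) in Hdac3f/f cells, which lost their calls, and that of Mvk in Hdac3f/f cells, called only then (-0.63); the other 4 were called on neither scale. The cause of these changes was not tested.

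Same-numbered libraries did not vary together throughout: 6 of 18 pairs had r above 0.1 (-0.385 to 0.284), and 6 of 12 libraries correlated best with their own number. Pairs of unlike number ran from -0.437 to 0.467. With 3 libraries per group this cannot tell whether same-numbered libraries share an animal or a batch. With the replicate block the counts were 17 higher and 6 lower with LPS in each genotype, 1 and 8 between untreated genotypes, 4 and 15 between LPS-treated ones, and 0 and 1 for the interaction. These are in part other genes: the block lost Acat2 between untreated genotypes (7 of the 8 calls were shared, with Mvk and Stard4 added) and lost the interaction of Mvd, calling Pmvk in its place. The low counts of Fdps and Tm7sf2 limit what can be said of them.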
